A study of Fundulus heteroclitus with 8 samples.

Results

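Respiratory complexes II to IV, with cytochrome c, are the part of the mitochondrial electron transport chain that follows and stands beside complex I. Complex V is the mitochondrial ATP synthase. Members were the array's non-control probes whose product name held succinate dehydrogenase (complex II), ubiquinol-cytochrome, cytochrome b-c1 or cytochrome b (complex III), cytochrome c (cytochrome c itself and the cytochrome c oxidase, COX, of complex IV), or mitochondrial ATP synthase (complex V). Names with NADH or vacuolar were left out. The rule found 98 of the array's 7157 probes, under 49 subunit or factor names: 2 of complex II, 18 of complex III, 3 of cytochrome c and its heme lyase, 48 of complex IV and 27 of complex V.

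Testis RNA was measured in 8 adult male mummichog (Fundulus heteroclitus, an estuarine killifish), each on its own single-colour Cy3 array, with all arrays on 1 slide. The DHT50 group was 4 males whose water held 5α-dihydrotestosterone (DHT) at 50 µg/L for 21 days. DHT is an androgen and cannot be aromatized to an estrogen. The control group was 4 males that received 0 µg/L. By their labels the samples are biological replicates and the RNA is of individuals, and males exposed to 5 µg/L were not analysed here.

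In the inner mitochondrial membrane, complex II passes electrons from succinate to ubiquinone, complex III passes them from ubiquinol to cytochrome c, and complex IV passes them on to oxygen. Complexes III and IV pump protons as they do so, and complex V lets the protons flow back and makes ATP. Most subunits are encoded in the nucleus, whereas cytochrome b and COX subunits 1, 2 and 3 are encoded by the mitochondrial genome. In the testis, germ cells and steroid-making Leydig cells both depend on mitochondria, and the sperm midpiece is packed with them.

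A level is given here as the log2 signal of a probe minus the 75th percentile of log2 signal on the same array, so a level of 0 is as bright as that percentile. The array design names products by the closest protein in another organism, and levels of different probes are not compared. Testing required a probe to be well above background on 4 or more arrays, which left 91 of the 98 members and 5989 of all 7157 probes. Of the members, 81 were well above background on all arrays and 5 on none. The 7 untested members were 1 probe each of cytochrome b, COX Va, COX subunits 1, 2 and 3, the ATP synthase g chain and F1 assembly factor 2.

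The arrays differed in ways other than the treatment, and some of these partly followed the groups. Row 1 of the slide held DHT50 1, 2 and 3 with control 1, and row 2 held DHT50 4 with controls 2, 3 and 4. Brightness, the 75th percentile of log2 signal, was 10.95, 7.97, 9.13 and 9.50 on the DHT50 arrays, against 11.21, 9.99, 10.09 and 10.03 on the control arrays. DHT50 2, 3 and 4 were dimmer than every control array. The group difference in brightness was -0.94, with an exact two-sided permutation p of 0.257. With 4 arrays per group, that p does not show that the groups were equally bright. DHT50 2 was the dimmest array and had 4742 probes well above background, where the other arrays had between 5539 and 6227. Control 1 stood apart by liver and plasma transcripts, whose summed linear level over 51 probes was 6.93 to 50.5 in DHT50 samples and 9.02 to 614 in control samples, the highest being control 1. The testis markers vasa (a germ cell helicase), the receptor of follicle-stimulating hormone and inhibin alpha were well above background on all 8 arrays. The steroid carrier StAR was so on 2 DHT50 arrays and 4 control arrays. In such whole-tissue RNA, fewer cells of a type and less RNA per cell cannot be told apart.

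The comparison asks which transcripts of complexes II to V and cytochrome c differed between the testes of DHT50 and control males. The median changes of the nuclear-encoded and the mitochondrially encoded members lay on opposite sides of 0. Of 66 tested nuclear-encoded probes, 55 (83.3%) were lower and 11 higher in DHT50, with a median log2 change of -0.47. The 25 tested mitochondrially encoded probes came under only 5 names, and 11 of them were COX subunit 2. Of the 25, 5 (20%) were lower, including all 3 of cytochrome b, and 20 were higher, with a median of 0.32. That split depended on the processing: 14 were higher by quantile normalization and in the deposited log2 table, 12 with array brightness as a covariate and 13 without DHT50 3. Over all tested probes, 46.4% were lower in DHT50 and the median change was 0.06.

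None of these single differences passed the test. By limma with Benjamini-Hochberg adjustment, 0 of 91 members had an adjusted p under 0.05, as did 0 of all 5989 probes (0%). At an unadjusted p under 0.05 there were again 0 members, whereas over all probes 85 were lower (1.42%) and 197 higher (3.29%). These unadjusted counts turned on DHT50 1. Without it, 23 of 66 nuclear-encoded members were lower and 3 higher, and 9 of 25 mitochondrially encoded members were higher. Of all 5989 probes, 550 were then lower and 838 higher. DHT50 2, 3 and 4 were dimmer than every control array, so leaving out DHT50 1 also separated the groups by brightness. With array brightness as a covariate, 0 members were lower or higher, and 45 of all probes were lower and 154 higher. With array weights, 19 nuclear-encoded members were lower, 2 nuclear-encoded and 7 mitochondrially encoded members were higher, and 613 of all probes were lower and 666 higher. The adjusted counts stayed at 0 in each of these settings. The smallest adjusted p of a member was 0.685 by limma. All 4 DHT50 arrays lay below every control array for 3 members, all of them nuclear-encoded (57 of all tested probes, 0.952%). They lay above every control array for 0 members (76 of all tested probes, 1.27%). Below, "lower" and "higher" give the sign of a difference that did not pass the test.

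**Figure D1:**
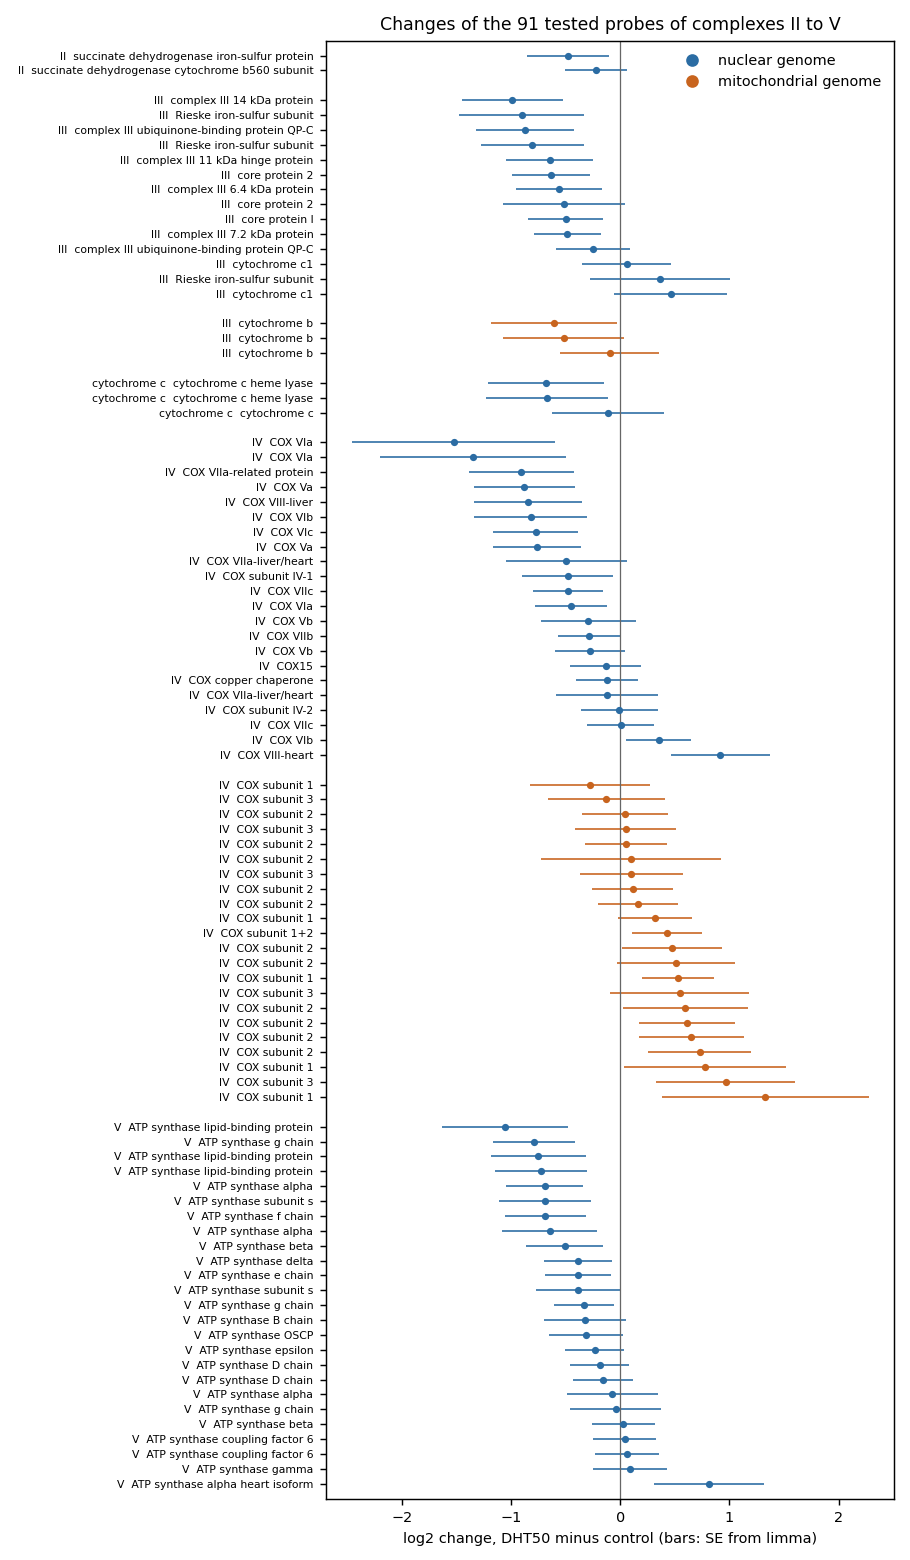
Log2 change (DHT50 minus control, horizontal axis) of each of the 91 tested probes, grouped by complex and then by the genome that encodes the product, with bars for the limma standard error. Nuclear-encoded probes (blue) lie mostly left of 0 in complexes II, III, IV and V, and the mitochondrially encoded COX probes (orange) lie mostly to the right.

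Complex II was represented by succinate dehydrogenase alone, the enzyme that the chain shares with the citric acid cycle. Both probes were lower in DHT50, by a median of -0.35. The iron-sulfur protein, which carries electrons away from the flavin (contig An_u_18517, bases 690 to 741), had levels of -0.11, -1.27, -1.43 and -1.08 in DHT50 males and -0.31, -0.80, -0.75 and -0.13 in control males. Its change was -0.48 ± 0.38 (log2 ± SE, n = 4 per group), and 3 DHT50 males lay below every control while DHT50 1 lay above them all. The cytochrome b560 subunit, a membrane anchor of the enzyme (An_u_18519), had 3.41, 3.11, 3.26 and 3.42 in DHT50 males and 3.46, 3.51, 3.30 and 3.81 in control males. The groups overlapped and the change was -0.22 ± 0.28.

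Complex III members were lower in DHT50 for 14 of 17 tested probes, with a median change of -0.52 and a range from -0.99 to 0.46. The accessory subunits that are small and without redox groups were all on the lower side. The 14 kDa protein (An_u_19872, bases 56 to 115) had levels of 0.57, -1.35, -0.38 and 0.39 in DHT50 males, against 0.89, 0.92, 0.23 and 1.16 in control males. Only DHT50 2 and DHT50 3 lay below every control, and the change of -0.99 ± 0.46 had the smallest p of all members.

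The ubiquinone-binding protein QP-C, another small subunit of complex III, had 2 probes on 1 contig (An_u_19885). The probe at bases 53 to 103 had 1.53, -0.36, 1.61 and 0.76 in DHT50 males, against 1.76, 1.63, 1.81 and 1.83 in control males. All 4 DHT50 males lay below every control, DHT50 3 only just, and the change was -0.87 ± 0.45. The probe at bases 249 to 301 had 3.24, 2.97, 4.09 and 3.77 in DHT50 males and 3.52, 4.00, 3.71 and 3.85 in control males. Here the groups overlapped, with DHT50 3 the highest of all 8 males, and the change was -0.25 ± 0.34. The other small subunits changed by -0.65 (the 11 kDa hinge protein, which helps cytochrome c to dock), -0.57 (the 6.4 kDa protein) and -0.49 (the 7.2 kDa protein).

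The core proteins of complex III, large subunits related to processing peptidases, were lower too. Core protein I (An_u_19895) had 2.93, 1.85, 2.99 and 2.55 in DHT50 males and 3.27, 2.83, 3.18 and 3.04 in control males, a change of -0.50 ± 0.35. Core protein 2 (AN_v_19894) had 2.16, 0.89, 1.95 and 1.72 in DHT50 males and 2.41, 1.97, 2.61 and 2.25 in control males, a change of -0.63 ± 0.36. For core protein 2, 3 DHT50 males lay below every control, and its second probe changed by -0.52.

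The redox subunits of complex III did not all share that direction. The Rieske iron-sulfur subunit, which takes the first electron from ubiquinol, had changes of -0.90 ± 0.57 and -0.81 ± 0.47 on its brighter probes. The first of these (AN_v_19889) read 2.83, -0.06, 1.76 and 2.24 in DHT50 males, against 2.58, 2.63, 2.21 and 2.95 in control males. DHT50 2 lay far below the other males there, and DHT50 1 lay among the controls. A dim Rieske probe (An_u_19890), well above background on 2 DHT50 and 3 control arrays, had a change of 0.37 ± 0.64, and the mean of the 3 probes changed by -0.45.

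Cytochrome c1, the heme protein that hands electrons to cytochrome c, had 2 probes with changes of 0.46 ± 0.52 and 0.06 ± 0.41. The first (An_u_8960) had -3.67, -1.01, -1.87 and -2.40 in DHT50 males and -2.93, -2.62, -2.82 and -2.42 in control males. DHT50 males took both ends of that range, with 3 above every control and DHT50 1 below them all. The second (An_u_8961) had -3.29, -3.01, -3.69 and -4.20 in DHT50 males and -2.97, -4.32, -3.82 and -3.33 in control males, with full overlap. Both probes were dim, and their signs depended on the processing. The first changed by -0.28 with brightness as a covariate, and the second by -0.02 in the deposited log2 table.

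Cytochrome b, the subunit of complex III that holds both ubiquinone sites, is the one that the mitochondrial genome encodes. Its brightest probe (An_u_7261, bases 415 to 474) had 4.63, 3.23, 5.76 and 5.92 in DHT50 males, against 5.53, 5.53, 5.01 and 5.90 in control males. A probe on another contig (AN_v_7306) had 4.29, 3.05, 5.53 and 5.60 in DHT50 males and 5.25, 5.19, 4.73 and 5.37 in control males. On both probes DHT50 1 and DHT50 2 lay below every control, while DHT50 4 lay above every control and DHT50 3 lay at or near the top. The changes of -0.61 ± 0.58 and -0.52 ± 0.56 therefore averaged males on opposite sides of the controls, and without DHT50 2 the median of the tested cytochrome b probes was 0.01.

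Cytochrome c, the small heme protein that moves between complexes III and IV, had 1 tested probe (An_u_7317). Its levels were 1.15, -0.77, 0.29 and -1.11 in DHT50 males and -0.11, -0.48, 0.04 and 0.58 in control males, which overlapped, and the change was -0.12 ± 0.51. Cytochrome c heme lyase attaches the heme to it. The heme lyase probes (AN_v_8965 and An_u_8964) changed by -0.68 ± 0.54 and -0.67 ± 0.56. On the first, DHT50 males had 1.52, -0.49, -0.72 and -0.23, against 1.43, 0.41, 0.06 and 0.90 in control males. The second read 0.83, -1.34, -1.58 and -1.03 in DHT50 males and 0.74, -0.47, -0.60 and -0.09 in control males. On both, DHT50 1 was the highest male and the other DHT50 males were the lowest of all.

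Complex IV divided by genome. Of its 22 tested nuclear-encoded probes, 19 were lower in DHT50 (median -0.47), and of its 22 mitochondrially encoded probes, 20 were higher (median 0.45). That count of 20 was 14 by quantile normalization (median 0.12) and in the deposited table (0.15), 12 with brightness as a covariate (0.05) and 13 without DHT50 3 (0.32). Taken as 1 complex, 21 of 44 probes were lower and the median was 0.03.

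Among the nuclear-encoded subunits, COX Va, which binds a thyroid hormone metabolite in mammals, was lower on both tested probes. AN_v_7331 had 1.23, -0.98, 0.22 and 0.48 in DHT50 males and 1.40, 1.05, 0.78 and 1.23 in control males, a change of -0.88 ± 0.46. An_u_7322 had 1.87, 0.17, 1.22 and 0.81 in DHT50 males and 2.13, 1.48, 1.65 and 1.86 in control males, a change of -0.76 ± 0.40. On both probes 3 DHT50 males lay below every control and DHT50 1 lay within the control range. COX VIc (An_u_7378), a small transmembrane subunit, had 2.64, 1.19, 2.16 and 2.38 in DHT50 males, against 2.95, 2.96, 2.40 and 3.18 in control males. DHT50 1 alone overlapped the controls, and the change was -0.78 ± 0.39.

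COX VIa, a regulatory subunit with separate muscle and liver forms in mammals, had the largest negative changes of any member, and it was chosen for description after its values were seen. The probe An_u_7366 had -0.73, -4.58, -0.95 and -0.63 in DHT50 males and 1.59, -1.12, -0.82 and -0.43 in control males. The probe An_u_7359 had -0.26, -3.55, -0.40 and -0.14 in DHT50 males and 2.08, -0.68, -0.37 and 0.02 in control males. The changes of -1.53 ± 0.93 and -1.35 ± 0.86 rested on a single male at each end, DHT50 2 and control 1. Without those arrays they were 0.02 and 0.08, and the remaining probe of the name (An_u_7355) changed by -0.45 ± 0.33.

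COX subunit IV, the largest nuclear-encoded subunit, was present in 2 isoforms. Isoform IV-1 (An_u_8947), the common form in mammalian tissues, had 3.53, 2.11, 2.17 and 1.99 in DHT50 males and 3.34, 2.58, 2.69 and 3.12 in control males. DHT50 1 was above every control and the other DHT50 males were below every control, so the change was -0.48 ± 0.41. Isoform IV-2 (An_u_8956), which in mammals is restricted to few tissues, had -2.40, -1.35, -1.93 and -1.89 in DHT50 males and -1.45, -2.44, -1.85 and -1.81 in control males, a change of -0.01 ± 0.35.

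The other nuclear-encoded COX names were mostly on the lower side. COX VIII-liver changed by -0.85 ± 0.49 and the COX VIIa-related protein by -0.91 ± 0.48. COX Vb, VIIa-liver/heart and VIIb had changes between -0.49 and -0.12. COX VIb had 1 probe at -0.82 and 1 at 0.35, and COX VIIc had 1 at -0.48 and 1 within 0.01 of 0. The copper chaperone, which delivers copper to the enzyme, changed by -0.12 ± 0.28, and COX15, which helps to make its heme A, by -0.14 ± 0.32.

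The exception on the higher side was COX VIII-heart (An_u_7416), the form that mammals make in heart and skeletal muscle. It had -0.37, 1.75, 0.81 and 0.35 in DHT50 males, against -0.61, -0.34, -0.03 and -0.16 in control males. Of the DHT50 males, 3 lay above every control and DHT50 1 lay among them, and the change was 0.92 ± 0.45. Muscle transcripts lay mostly on the same side. Beside 3208 of 5989 over all tested probes (median 0.06), 45 of 59 tested muscle probes were higher in DHT50, with a median change of 0.26. Their summed linear level was 38.1 to 73.0 in DHT50 males and 42.9 to 64.4 in control males, and 40 of the 79 muscle probes were well above background on all arrays. Fast skeletal troponin T had 1 of its 3 probes well above background on all arrays, with a change of 0.53 ± 0.42. Its other tested probe changed by -0.03 ± 0.60. The tested probes of fast skeletal myosin heavy chain and skeletal alpha actin changed by -0.13 ± 0.61 and 0.48 ± 0.52. None of these dimmer probes was well above background on all arrays. Both tested probes of creatine kinase M-type were well above background on all arrays and were lower, with changes of -0.31 ± 0.50 and -0.17 ± 0.45. The part of muscle RNA in the COX VIII-heart difference was not tested.

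**Figure D2:**
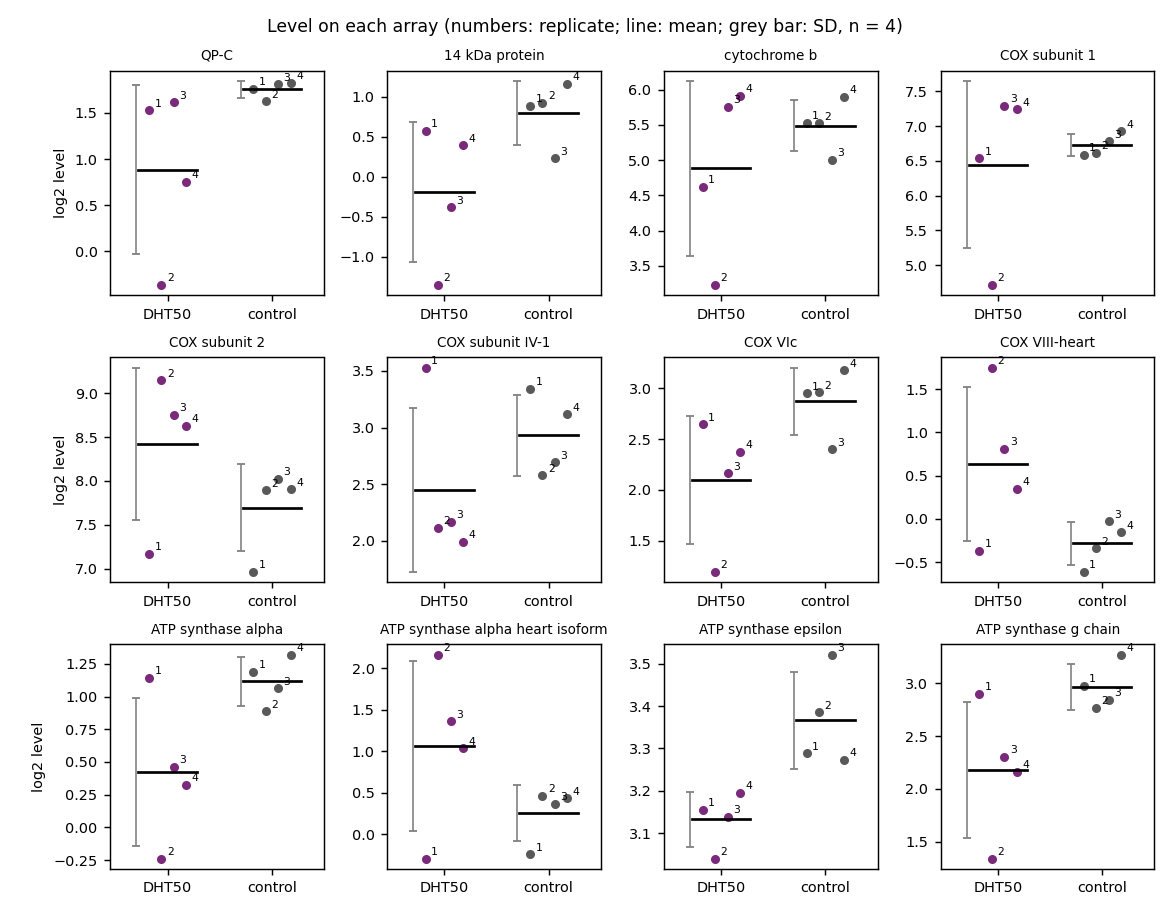
Log2 level (vertical axis) of 12 probes on each array, DHT50 left and control right, with replicate numbers beside the points, a line for the mean and a grey bar for the SD (n = 4). In 11 of the panels DHT50 males spread more widely than control males, and DHT50 2 lies at an end of the DHT50 points in all panels but COX subunit IV-1.

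The mitochondrially encoded COX subunits form the catalytic center of complex IV. Subunit 2 holds the copper center that receives electrons from cytochrome c, and all 11 of its tested probes were higher in DHT50, with changes from 0.05 to 0.73. The brightest of them (An_u_8601, bases 22 to 81) had 7.17, 9.15, 8.75 and 8.63 in DHT50 males, against 6.96, 7.89, 8.02 and 7.91 in control males. DHT50 2, 3 and 4 lay above every control, DHT50 1 and control 1 were the lowest of all, and the change was 0.73 ± 0.47. A second probe near the start of a contig (An_u_8598, bases 1 to 60) had 6.65, 8.65, 8.50 and 8.19 in DHT50 males and 6.71, 7.45, 7.69 and 7.56 in control males, a change of 0.65 ± 0.48.

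Bright subunit 2 probes placed further into their contigs read otherwise on DHT50 2. The probe AN_v_8595 (bases 342 to 399) had 6.51, 6.03, 7.58 and 7.34 in DHT50 males, against 6.60, 6.83, 6.90 and 6.94 in control males, a change of 0.05 ± 0.39. DHT50 2 was the lowest male here and the highest on An_u_8601. The 4 bright subunit 2 probes that begin between bases 248 and 342 of their contigs changed by 0.05 to 0.16, and the 3 that begin at bases 1, 2 and 22 changed by 0.61 to 0.73. Dim subunit 2 probes did not all follow that split. On An_u_8609 (from base 361) and An_u_8610 (from base 499), DHT50 2 was the highest male, and the changes were 0.60 and 0.51. The dim probe An_u_7689 (from base 42) changed by 0.47, with DHT50 2 again the highest male. The dim probe An_u_8611 (from base 674) changed by 0.10, with control 4 the highest male. These contigs are separate assemblies, so their bases do not count along 1 transcript.

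Subunit 1, which holds the site where oxygen is reduced, was higher on 4 of 5 tested probes, with changes from -0.28 to 1.33. The probe An_u_7452 (bases 77 to 136) had 3.92, 4.74, 5.02 and 4.80 in DHT50 males, against 3.90, 4.15, 4.10 and 4.22 in control males, a change of 0.53 ± 0.33. The probe AN_v_7470 (bases 628 to 687) had 6.54, 4.72, 7.29 and 7.24 in DHT50 males, against 6.58, 6.62, 6.78 and 6.92 in control males, a change of -0.28 ± 0.55. On the first probe DHT50 2, 3 and 4 were all above the controls, and on the second DHT50 3 and 4 stayed above them while DHT50 2 lay far below. A dimmer subunit 1 probe (AN_v_7461, bases 458 to 517) had -2.88, 0.77, -0.51 and -0.81 in DHT50 males, against -2.95, -1.29, -1.47 and -0.84 in control males. There DHT50 2 was the highest male, and the change of 0.78 ± 0.75 was -0.42 with brightness as a covariate. The remaining tested probes changed by 0.32 ± 0.34 (AN_v_7507) and 1.33 ± 0.95 (An_u_7483). The latter was dim, and well above background on 4 DHT50 arrays but 1 control array. A probe that names subunits 1 and 2 together (An_u_7676) had 3.54, 4.17, 4.55 and 4.29 in DHT50 males and 3.54, 3.68, 3.66 and 3.96 in control males, a change of 0.43 ± 0.32.

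Subunit 3, the third core subunit, was higher on 4 of 5 tested probes, with changes from -0.13 to 0.96. Its brightest probe (AN_v_8928, bases 252 to 305) had 6.62, 6.30, 8.20 and 7.999 in DHT50 males and 6.91, 7.2, 7.18 and 7.41 in control males. DHT50 3 and 4 were above every control and DHT50 1 and 2 below every control, and the change was 0.10 ± 0.47. Quantile normalization and the deposited log2 table put that change at -0.22 and -0.26.

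Before scaling to the array, the bright mitochondrial probes differed in how far their signals ranged. The unscaled log2 signal of the subunit 2 probe An_u_8601 was 18.12, 17.12, 17.89 and 18.13 on the DHT50 arrays, against 18.17, 17.88, 18.11 and 17.94 on the control arrays. Its range over the arrays was 1.05, and that of An_u_8598 was 1.30. The dimmer subunit 1 probe AN_v_7461 ranged over 1.12. The subunit 2 probe AN_v_8595 ranged over 3.82, and other bright mitochondrial probes over 3.85 (subunit 3, AN_v_8928), 5.11 (subunit 1, AN_v_7470), 5.54 (cytochrome b, An_u_7261) and 5.44 (cytochrome b, AN_v_7306). The median unscaled signal ranged over 3.59 for the mitochondrially encoded members and over 4.75 for the nuclear-encoded members. The highest unscaled signal of any probe, taken on each array separately, ranged over 0.22, and 0 spots carried a saturation flag. The part of this limited range in the subunit 2 difference was not tested. Among the mitochondrially encoded members as bright as the 75th percentile or brighter, 12 of 16 were higher with a median of 0.11, which was -0.04 by quantile normalization and -0.06 in the deposited table. Among those dimmer than that percentile, 8 of 9 were higher with a median of 0.54. Some of these lay near background, and the scaled level at which background begins differed between arrays. The lowest level of a spot well above background was -3.86 on DHT50 2 and -7.06 on control 1. The largest change, 1.33 (COX subunit 1, An_u_7483), was on a probe well above background on 4 DHT50 arrays but 1 control array. The part of background in these changes was not tested.

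**Figure D3:**
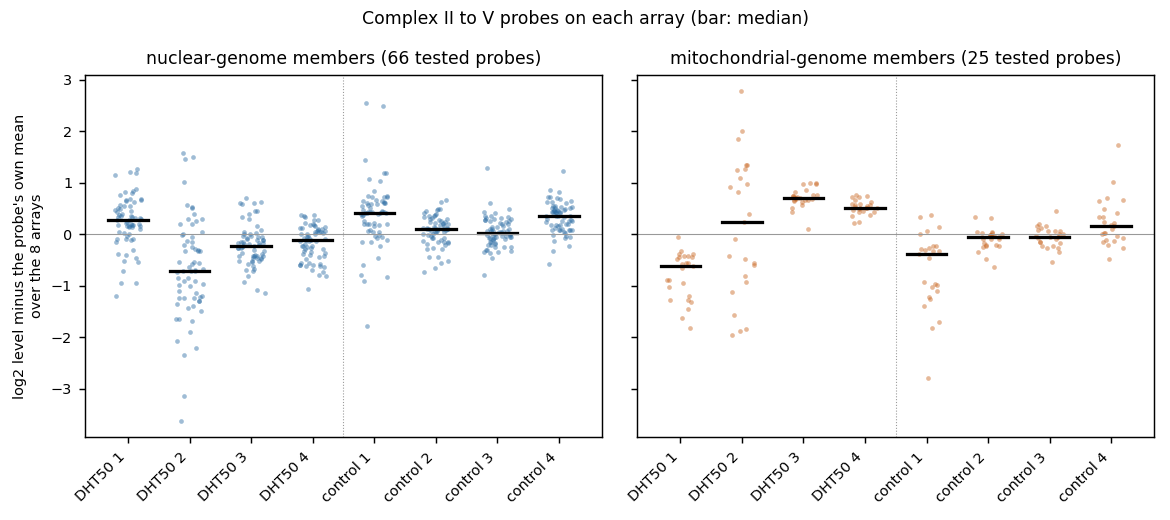
Log2 level of each tested member on each array minus the probe's own mean over the 8 arrays (vertical axis), for 66 nuclear-encoded probes (left) and 25 mitochondrially encoded probes (right), with black bars for medians. The nuclear-encoded median is lowest on DHT50 2 (-0.71), and the mitochondrially encoded probes of DHT50 2 spread over both sides of 0.

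Complex V, the ATP synthase, had 25 tested probes, of which 20 were lower and 5 higher in DHT50, with a median change of -0.33 and a range from -1.05 to 0.81. In the catalytic head, the alpha subunit was lower on its 3 probes. The probe AN_v_5124 had 1.14, -0.24, 0.46 and 0.33 in DHT50 males, against 1.19, 0.89, 1.06 and 1.32 in control males, a change of -0.69 ± 0.35. The probe An_u_5118 had 1.78, -0.23, 0.51 and 0.55 in DHT50 males and 1.72, 1.13, 1.03 and 1.32 in control males, a change of -0.65 ± 0.44. On both, DHT50 2, 3 and 4 lay below every control and DHT50 1 did not. With brightness as a covariate the changes were -0.33 (AN_v_5124) and -0.05 (An_u_5118). The third alpha probe changed by -0.07.

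The beta subunit carries the catalytic sites. Its brighter probe (AN_v_5146) had 4.53, 3.43, 3.71 and 4.46 in DHT50 males, against 4.84, 4.56, 4.29 and 4.47 in control males, a change of -0.51 ± 0.35. DHT50 2 and 3 were below every control, and the second beta probe changed by 0.03 ± 0.29. A separate product, named the heart isoform of alpha (An_u_5108), went the other way, with -0.29, 2.17, 1.36 and 1.04 in DHT50 males, against -0.24, 0.46, 0.36 and 0.43 in control males. As with COX VIII-heart, DHT50 2, 3 and 4 lay above every control, whereas DHT50 1 was the lowest male, and the change was 0.81 ± 0.50. That change was 0.08 with brightness as a covariate and 0.28 without control 1 and DHT50 2 together.

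The central stalk turns within that head. Its delta subunit (An_u_5181) had 4.13, 3.34, 3.85 and 4.23 in DHT50 males and 4.15, 4.49, 4.15 and 4.32 in control males, a change of -0.39 ± 0.32. Its epsilon subunit (An_u_5192, bases 1 to 50) had 3.15, 3.04, 3.14 and 3.20 in DHT50 males, against 3.29, 3.39, 3.52 and 3.27 in control males. All 4 DHT50 males lay below every control, with a change of -0.23 ± 0.27. The SD was 0.066 in DHT50 males and 0.11 in control males, and limma's SE draws on the spread of all probes. The gamma subunit (An_u_5240), which forms the shaft, had -1.01, -0.96, -1.40 and -1.82 in DHT50 males and -1.17, -1.79, -1.60 and -0.996 in control males, which overlapped, a change of 0.09 ± 0.34.

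The peripheral stalk, which keeps the head from turning, had changes from -0.32 to 0.06. The B chain (An_u_5127) had 1.66, 0.68, 0.59 and 0.44 in DHT50 males and 1.72, 0.86, 0.99 and 1.1 in control males, a change of -0.32 ± 0.38. The oligomycin sensitivity-conferring protein (An_u_5317) had 1.54, 0.82, 0.67 and 0.74 in DHT50 males and 1.76, 0.95, 1.29 and 1.02 in control males, a change of -0.31 ± 0.34. For both, 3 DHT50 males lay below every control. Coupling factor 6 had 2 bright probes on contig An_u_5153 with changes of 0.04 ± 0.29 and 0.06 ± 0.29. The first had 4.60, 5.05, 4.56 and 4.86 in DHT50 males and 4.59, 4.92, 4.57 and 4.84 in control males. The second had 3.70, 4.31, 3.91 and 4.21 in DHT50 males and 3.79, 4.11, 3.93 and 4.09 in control males. On both, DHT50 2 was the highest male, and the groups overlapped. The D chain changed by -0.19 and -0.15.

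The lipid-binding protein, which forms the rotor ring in the membrane, was lower on its 3 probes, by -1.05, -0.75 and -0.73. The brightest (An_u_5241) had 3.96, 2.08, 3.53 and 2.88 in DHT50 males and 4.04, 3.60, 3.82 and 3.90 in control males, a change of -0.73 ± 0.42. DHT50 2, 3 and 4 were below every control.

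The small membrane subunits e, f and g help ATP synthase to form dimers. The g chain probe AN_v_5226 had 2.90, 1.34, 2.31 and 2.16 in DHT50 males, against 2.98, 2.77, 2.85 and 3.27 in control males, a change of -0.79 ± 0.38. A dimmer g chain probe (An_u_5214) had -1.26, -1.41, -1.52 and -1.61 in DHT50 males and -0.91, -1.17, -1.22 and -1.16 in control males. On that dimmer probe all 4 DHT50 males lay below every control, with a change of -0.33 ± 0.28. The f chain (An_u_5195) had 3.09, 1.81, 2.10 and 1.74 in DHT50 males and 3.17, 2.57, 2.79 and 2.96 in control males, a change of -0.69 ± 0.37. The e chain changed by -0.39, and subunit s, a coupling protein, by -0.69 and -0.38.

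Across the complexes, nuclear-encoded core subunits were lower on 21 of 27 tested probes (median -0.39) and accessory subunits on 30 of 35 (median -0.48). The 4 tested assembly factors were lower by a median of -0.41. Bright and dim nuclear-encoded members lay on the same side: those above the 75th percentile had a median of -0.48 and those below it a median of -0.33.

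The nuclear-encoded members varied with the brightness of the arrays. Their median level relative to each probe's own mean was 0.28, -0.71, -0.22 and -0.11 in DHT50 males, against 0.42, 0.10, 0.02 and 0.35 in control males. DHT50 1, the brightest DHT50 array, thus lay inside the control range, and the dimmest array, DHT50 2, was the lowest. With brightness as a covariate the median change of the nuclear-encoded members was -0.18, beside a median of -0.13 over all tested probes. Without DHT50 2 it was -0.29, and without DHT50 2 and control 1 together it was -0.21, beside -0.10 over all tested probes. Within slide row 1 it was -0.66 (3 DHT50 males and 1 control), beside 0.33 over all tested probes. The lone control there was control 1, which stood apart by liver and plasma transcripts, and DHT50 2 was among the DHT50 males. Within slide row 2 it was -0.35 (1 DHT50 male, DHT50 4, and 3 controls), beside 0.07 over all tested probes. In both rows the lone male was assumed to vary like the others. Testis markers lay on both sides of 0. Vasa read -0.02, -2.08, -2.37 and -1.59 in DHT50 males, against 0.03, -0.82, -1.17 and -0.24 in control males, a change of -0.96 ± 0.54, with DHT50 2, 3 and 4 below every control. The receptor of follicle-stimulating hormone changed by -1.02 ± 0.77 and inhibin alpha by 0.89 ± 0.42, each with an adjusted p of 0.685 by limma, as for vasa. The other somatic markers changed by -0.63 (StAR), 0.21 (the luteinizing hormone receptor) and 0.79 (cytochrome P450 17A1). The germ cell list as a whole had 4 of 7 tested probes lower, with a median change of -0.18. Its median relative level was highest on DHT50 2, at 0.40. The part of cell makeup in the nuclear-encoded difference was not tested.

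The mitochondrially encoded members did not all vary with brightness in the same way. Their median was -0.61, 0.25, 0.71 and 0.52 in DHT50 males, against -0.38, -0.05, -0.04 and 0.15 in control males, with DHT50 1 and control 1, the brightest arrays, at the bottom. With brightness as a covariate the median change was within 0.01 of 0, where it had been 0.32. It was 0.09 by quantile normalization, 0.06 in the deposited table, 0.63 without DHT50 1 and 0.22 without DHT50 2 and control 1 together. The red blood cell list, whose median change was 0.42 over 17 tested probes, had its lowest medians on the same arrays, DHT50 1 at -0.89 and control 1 at -0.84. Of the 4 DHT50 arrays, 3 were dimmer than every control array.

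**Figure D4:**
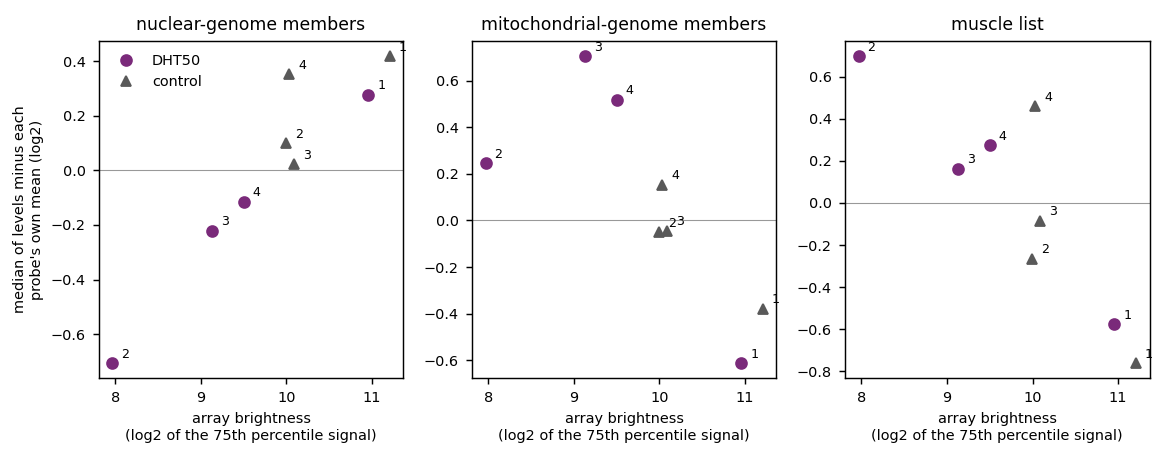
Median level of a gene list on each array relative to each probe's own mean (vertical axis, log2) against the array's brightness (horizontal axis, log2 of the 75th percentile signal), for nuclear-encoded members, mitochondrially encoded members and the muscle list. DHT50 arrays are circles, control arrays triangles and the numbers replicates. The nuclear-encoded median is lowest on the dimmest array, and the other medians are lowest on the 2 brightest arrays.

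**Figure D5:**
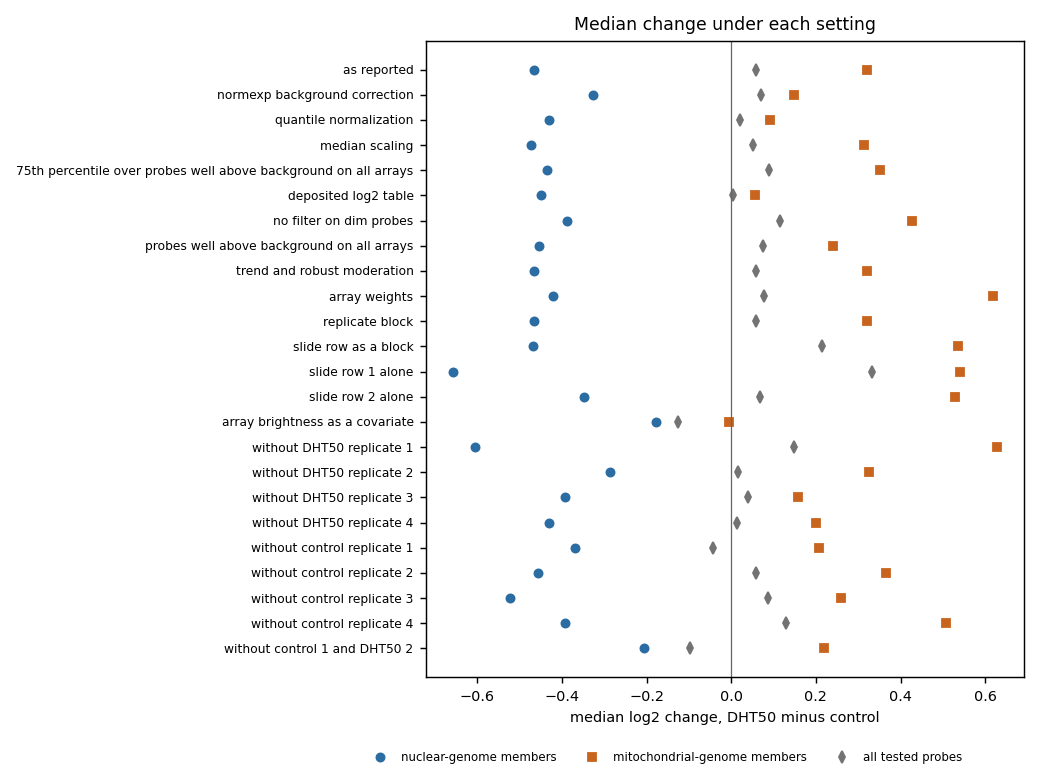
Median log2 change (DHT50 minus control, horizontal axis) of nuclear-encoded members, mitochondrially encoded members and all tested probes under each of 24 settings of the processing. The nuclear-encoded median lies between -0.66 and -0.18 throughout, and the mitochondrially encoded median lies above 0 in every setting but array brightness as a covariate.

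Neighbouring pathways were matched by product name for comparison. Nuclear-encoded complex I, which feeds ubiquinone from NADH, had 31 of 40 tested probes lower (median -0.34), and the mitochondrial ribosome, which translates the COX and cytochrome b messages, had 30 of 36 lower (median -0.52). At an unadjusted p under 0.05, 1 of those ribosomal probes was lower, and none of the lists had a member at an adjusted p under 0.05 by limma. The citric acid cycle had 13 of 18 lower (median -0.12) and the carriers of ATP and phosphate 13 of 22 (median -0.01). The vacuolar proton pump, a relative of complex V that burns ATP in other membranes, had 3 of 8 lower (median 0.02). The mitochondrial transcription factor A, which drives expression of the mitochondrial genome, changed by 0.10 ± 0.30.

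Mitochondrially encoded transcripts outside the members did not all lie on the side of the COX subunits. Complex I subunits of the mitochondrial genome had 14 of 25 probes higher with a median of 0.05. The ATP synthase a chain, the mitochondrially encoded proton channel of complex V, whose product name does not hold the word mitochondrial, was lower on all 10 tested probes, with changes from -0.77 to -0.11. Its median relative level was -0.40, -2.98, 1.17 and 1.04 in DHT50 males, against 0.50, 0.13, -0.11 and 0.67 in control males. DHT50 3 and 4 were thus the highest of the 8 males and DHT50 2 by far the lowest, and DHT50 2 was also the lowest male on the bright cytochrome b probes. No test of the difference between transcripts of the mitochondrial genome was run.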

How the data were processed

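Each spot's deposited intensity is gProcessedSignal, written by Agilent Feature Extraction (10.7.1.1) after background subtraction and detrending within the array, per the file headers. A deposited log2 table of the same arrays has equal medians of 7.47 and equal sorted values on all arrays (within 0.001), and correlated with the log2 scanner signal at 0.995 to 1.00. The tool behind it was not given in these sources. Outlier-flagged readings (28 of 114512) were left out. The 75th percentile of the non-control spots was subtracted from log2 signal array by array, and the result was averaged over the 2 spots of a probe, and tested with limma 3.58.1 in R 4.3.3 (lmFit, eBayes, two-sided, Benjamini-Hochberg over 5989 probes). The fit was tested on simulated data. The number of arrays limits precision: the median SE of a log2 change was 0.45.

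Array values are given for the 3 smallest p in each direction and the 2 highest levels per complex, and for core subunits. COX VIa, QP-C (bases 249 to 301), AN_v_8595, AN_v_7461 and An_u_5214 were added after their values were seen. Members and lists were chosen with earlier results of these data known. Alternatives were normexp (offset 50), quantile, median and detected-probe scaling, the deposited table, both filters, trend and robust moderation, array weights, replicate and slide row blocks, each row, brightness as a covariate, and arrays left out. Mummichog gene names of the mitochondrial genome came from the RefSeq table of assembly MU-UCD_Fhet_4.1.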

Additional observations from a re-analysis of the deposited data

Results flagged for a closer look

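In groups of 4 arrays, 106 sets of values were checked for an array far from the rest of its group, and 6 had one; chance alone marks about 1 in 20 such sets. COX VIa on DHT50 2 read -3.55 and -4.58 on its probes An_u_7359 and An_u_7366, far below the other DHT50 arrays. COX subunit IV-1 on DHT50 1 read 3.53, above the other DHT50 arrays, and the median relative level of complex V on DHT50 1 was 0.33, again above them. Control 1 lay below the other control arrays for the COX subunit 2 probe An_u_8601, at 6.96, and for the heart isoform of ATP synthase alpha, at -0.24. All 6 values were on DHT50 1, DHT50 2 or control 1, the dimmest array and the 2 brightest.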

How the results depend on the processing

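No complex median moved from its reported value by more than the SD of its array medians within groups. That SD was 0.84 for cytochrome c, whose median turned to 0.08 with brightness as a covariate. In that setting the medians of complexes III and V were -0.26 and -0.17. No member had an adjusted p under 0.05 in any of the 24 settings by limma (0 calls each). Over all probes the count was 0 except within slide row 1 alone, where it was 106 (0 of them members). With the replicate number as a block there were 0 calls over all probes and 0 among members. Each such block holds 1 DHT50 and 1 control array, so it can alter the errors but not the changes. The complex III median of -0.52 is therefore the same by design. The labels do not state a pairing of same-numbered arrays. Their deviations from the group means correlated at 0.20, 0.16, 0.38 and -0.11. The median of complex IV ranged from -0.12 to 0.29 and that of cytochrome c from -1.33 to 0.08. Dim probes near background limit what these arrays can show.

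The changes that turned sign are given here; the cause was not tested. With brightness as a covariate they were -0.0043 for COX subunit 2 (An_u_8598), 0.11 and -0.42 for COX subunit 1 (AN_v_7470 and AN_v_7461), 0.32 for cytochrome c, 0.0020 and 0.082 for its heme lyase, -0.28 for cytochrome c1 (An_u_8960), 0.044 for the ATP synthase B chain, -0.094 and -0.13 for coupling factor 6 and -0.46 for the dim Rieske probe. With array weights, gamma was -0.013, COX subunit 1 (AN_v_7470) 0.30, cytochrome b 0.18 and 0.075, coupling factor 6 (bases 294 to 350) -0.077, QP-C (bases 249 to 301) 0.0045 and COX IV-2 0.14. The deposited table gave -0.022 for coupling factor 6 (bases 347 to 399), -0.017 for cytochrome c1 (An_u_8961), -0.26 for COX subunit 3 (AN_v_8928), -0.15 for COX subunit 2 (AN_v_8595) and 0.0041 for COX IV-2. Quantile normalization gave -0.22 and -0.12 for those COX subunit 3 and 2 probes, -0.0058 for cytochrome c1 (An_u_8961) and 0.017 for COX IV-2, which was 0.022 with detected-probe scaling. Under normexp cytochrome c1 (An_u_8961) was -0.044. The mean of a name's probes was -0.45 for Rieske and 0.54 for COX subunit 1.

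Slide row 1 alone gave -0.36 for cytochrome c1 (An_u_8961) and 0.34 for cytochrome c. Slide row 2 alone gave 0.018 for beta (AN_v_5146), -0.081 for the dim Rieske probe, -0.38 for cytochrome c1 (An_u_8961), -0.36 for gamma, 0.21 and 0.16 for COX VIa, 0.50 and 0.44 for cytochrome b, 0.47 for COX subunit 1 (AN_v_7470) and 0.14 for COX IV-2. With slide row as a block, COX subunit 1 (AN_v_7470) was 0.034, gamma -0.16 and cytochrome c1 (An_u_8961) -0.37. Without control 1 and DHT50 2, the dim Rieske probe was -0.45, COX VIa 0.077 and 0.022, cytochrome b (AN_v_7306) 0.043, COX subunit 1 0.25 (AN_v_7470) and -0.20 (AN_v_7461), cytochrome c1 (An_u_8960) -0.026, coupling factor 6 -0.10 on both probes and cytochrome c 0.064.

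Leaving out each array in turn gave -0.055 to 0.11 and -0.034 to 0.17 for the coupling factor 6 probes, -0.045 to 0.26 for gamma, -0.56 to 0.30 for COX subunit 1 (AN_v_7470), -0.21 to 0.43 for COX subunit 3 (AN_v_8928), -0.19 to 0.33 for COX subunit 2 (AN_v_8595), -0.19 to 0.16 for COX IV-2, -0.85 to 0.0053 for cytochrome b (AN_v_7306), -0.53 to 0.22 for cytochrome c, -0.18 to 0.28 for cytochrome c1 (An_u_8961) and -0.17 to 0.83 for the dim Rieske probe.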
